A study of Hansenula anomala with 15 samples.

Results

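The levels of transcripts in the yeast Wickerhamomyces anomalus at 64 h of fermentation were compared with those at 16 h across all genes. The members are 6 of the 15 libraries of the series, 3 biological replicates at 64 h and 3 at 16 h, chosen by the time point in the labels and by no measured value. All came from whole fermentation broth of an apricot fermentation whose volatile compounds were under study, and polyadenylated RNA was sequenced. The organism label reads Hansenula anomala, and no strain, medium, treatment or batch is named, so the groups differ by time alone as far as the labels say. Sugar and ethanol values were not used here, and calling 16 h a sugar phase rests on the transcripts described below.

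Wickerhamomyces anomalus is a yeast of fruit and wine known for fruity esters. A fermenting yeast cell takes up hexoses, splits sucrose outside the cell with invertase, and runs glycolysis to pyruvate, which pyruvate decarboxylase and alcohol dehydrogenase turn into ethanol. When sugar runs out, yeasts can live on ethanol, acetate or other short carbon compounds: the glyoxylate cycle (isocitrate lyase, malate synthase) builds dicarboxylic acids from acetyl units, and phosphoenolpyruvate carboxykinase sends carbon back up towards sugar. Gene names rest on homology, and the roles given are those known for the genes of the same name in Saccharomyces cerevisiae or for the annotated enzyme family.

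Counts summed to 24401491 to 38613225 in the 16 h libraries and to 17678137 to 28561106 in the 64 h libraries, where 3 counts, taken as the floor of detection, are 0.0777 to 0.17 CPM, the count scaled to a fixed library total. Floors cover counting error only. The 10 genes with the most counts took 46.0% to 52.5% of a 16 h library and 26.9% to 34.3% of a 64 h library. A library in each group stood apart. Across 4552 genes, Spearman's rho of 16 h replicate 2 with replicates 1 and 3 was 0.754 and 0.723, against 0.964 between those, and 64 h replicate 3 had 0.836 and 0.759 with its group, against 0.943 between its group mates and 0.951 with 32 h replicate 2. Both were kept, and values without them are given for part of the results that they change.

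In total 1138 genes (18.0% of the 6327 tested) rose and 1314 (20.8%) fell from 16 h to 64 h, so that 38.8% changed, and 1050 and 1217 of them did so by at least 2-fold. A gene is said to have risen or fallen where its adjusted p was under 0.05 in edgeR's quasi-likelihood test with Benjamini-Hochberg adjustment, and levels are CPM scaled by TMM, a method that sets the bulk of the genes level between libraries. The 3 levels at 64 h lay above the 3 at 16 h for 1186 genes (18.7%) and below them for 1272 (20.1%). Scaling by library size alone moved the median log2 fold change of all genes from -0.07 to 0.86 and gave 2303 risen and 386 fallen genes, so that risen genes made up 85.6% of the calls in place of 46.4%. Leaving out both of the outlying libraries gave 1447 risen and 1599 fallen genes. The main fit took its spread from all 15 libraries. With only the 6 libraries compared in the fit, 561 of 6204 genes tested rose and 576 fell.

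**Figure D1:**
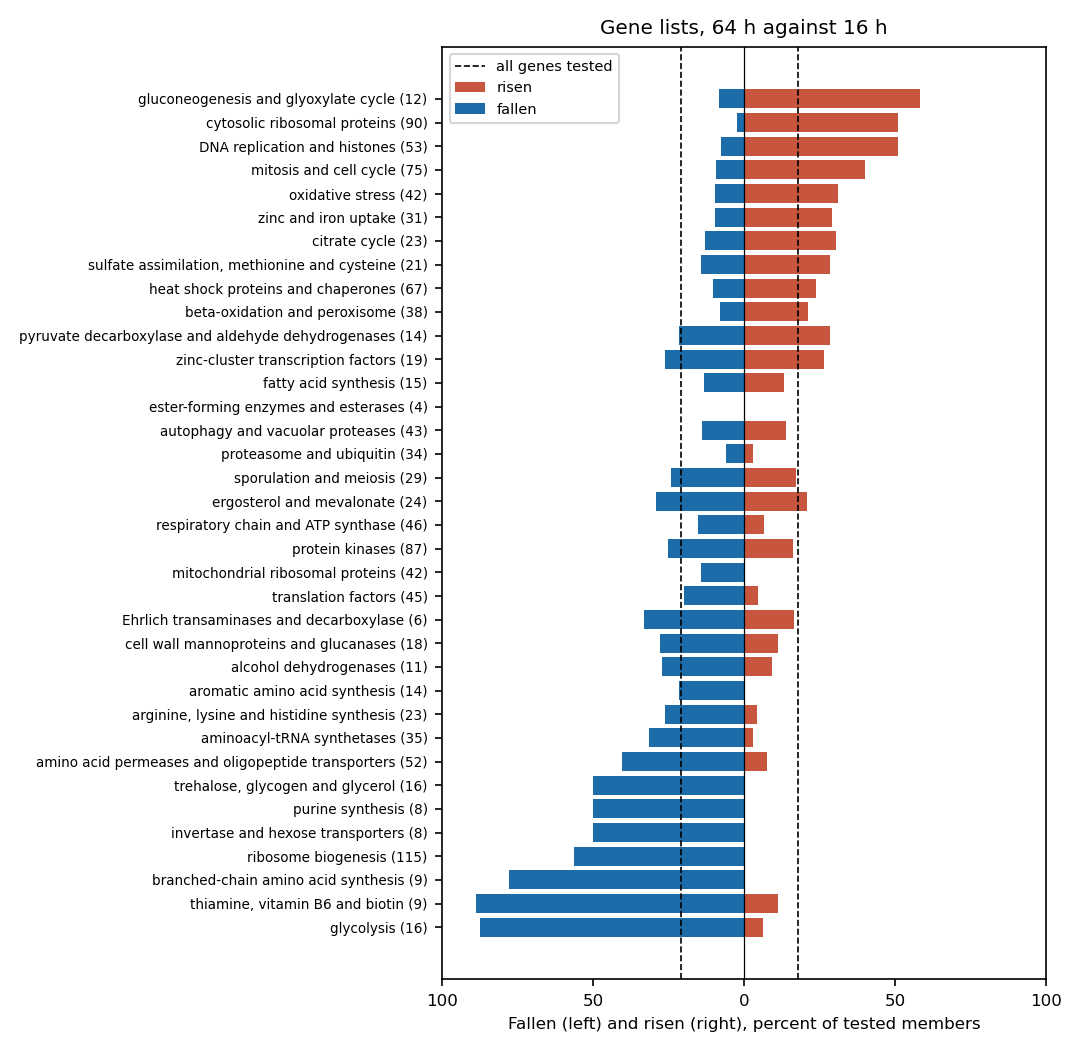
Percent of the tested members of each gene list that rose (right) or fell (left) from 16 h to 64 h, with the number tested in parentheses and the shares of all genes tested, 18.0% and 20.8%, as dashed lines. Glycolysis, the vitamin list and branched-chain amino acid synthesis had the highest fallen shares, and the gluconeogenesis and glyoxylate list the highest risen share.

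Transcripts of sugar splitting, uptake and breakdown were lower at 64 h. Of 16 genes of glycolysis, 14 fell and 1 rose, with a median log2 fold change of -3.82 (with library size scaling 13 fell), against 20.8% and 18.0% of all genes tested and their median of -0.07. Summed over the list, these transcripts took 37.7%, 26.6% and 35.6% of all counts in the 3 libraries at 16 h and 3.06%, 5.03% and 1.17% at 64 h. The shares did not overlap, and 64 h replicate 2 kept the highest share of its group. That list holds genes for every step from hexokinase to pyruvate kinase.

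At the top of the pathway stood invertase and the hexokinases. The invertase gene WICANDRAFT_35787 had 1741, 62.0 and 1363 CPM in 16 h replicates 1 to 3 and 0.199, 0.825 and 0.501 CPM in those of 64 h (log2 fold change -10.99, SE 1.17, adjusted p = 1.86e-05). The 64 h levels were all under 1 CPM, and that of replicate 1 was near its floor of 0.148 CPM before TMM scaling. Among the 16 h libraries replicate 2 was far below the others. Hexokinase gene WICANDRAFT_65261, whose product traps glucose and fructose in the cell as phosphates, went from 25909, 5866 and 22515 to 23.0, 330.2 and 23.5 CPM (log2 fold change -7.17, SE 1.13, adjusted p = 0.000305). Replicate 2 was the low library at 16 h and the high one at 64 h, without overlap, and without 64 h replicate 2 the log2 fold change was -9.60. A further hexokinase gene, WICANDRAFT_79472, fell from 24182, 18664 and 13267 to 434, 1063 and 481 CPM, 28.4-fold lower in the fit (adjusted p = 6.76e-05). NGK1, also annotated as a hexokinase, stood at 3.96, 5.36 and 5.78 and 2.39, 3.69 and 6.93 CPM and was not called (log2 fold change -0.21, adjusted p = 0.664, and 0.77 with library size scaling).

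The middle and lower steps fell as well. PFK1 and PFK2 encode phosphofructokinase, the committed step of glycolysis. PFK1 had 2512, 1134 and 3377 CPM at 16 h and 47.6, 111 and 14.3 at 64 h (log2 fold change -5.34, SE 0.84, adjusted p = 0.000315), and PFK2 3804, 3251 and 4569.8 and 118, 190.5 and 57.3 CPM (log2 fold change -4.99, SE 0.53, adjusted p = 1.88e-05). FBA1, aldolase, went from 82775, 38546 and 50954 to 1438, 3287 and 291 CPM (log2 fold change -5.10, SE 0.89, adjusted p = 0.000613). For these 3 genes the groups were separate, with 64 h replicate 2 the highest and replicate 3 the lowest of the later group. Pyruvate kinase gene WICANDRAFT_88059 fell 45.0-fold and PGK1, phosphoglycerate kinase, 13.4-fold (adjusted p = 0.00144 and 0.00311). Without 64 h replicate 2 the log2 fold changes were -6.24 for PFK1, -6.05 for FBA1, -6.32 for pyruvate kinase and -4.59 for PGK1, and without 16 h replicate 1 that of pyruvate kinase was -4.90.

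Paralogs of the same enzyme did not all move together. Glyceraldehyde-3-phosphate dehydrogenase gene WICANDRAFT_25185, the gene with the most counts in every 16 h library, took 13.98%, 8.99% and 12.4% of those libraries, and its level went from 358940.0, 141654 and 194565 to 13587, 29561 and 3705 CPM (log2 fold change -3.89, SE 0.84, adjusted p = 0.00273). Another gene of the enzyme, WICANDRAFT_69455, stood at 3.74, 9.23 and 3.38 CPM at 16 h and at 44.9, 52.7 and 13.6 CPM at 64 h (log2 fold change 2.77, SE 0.54, adjusted p = 0.00138). It was the single member of the glycolysis list that rose, with its lowest 64 h level in replicate 3, above all 16 h levels. Enolase gene WICANDRAFT_30943 fell from 221448, 105821 and 129872 to 4963, 8538 and 1075 CPM (log2 fold change -4.97, SE 0.98, adjusted p = 0.00141), with no overlap. The second enolase gene, WICANDRAFT_68381, had 24.8, 209.6 and 18.6 and 27.0, 22.7 and 9.94 CPM, overlapping ranges set apart by 16 h replicate 2 alone. It was called as fallen (log2 fold change -2.08, adjusted p = 0.0297), and the call ended without 16 h replicate 2 (log2 fold change -0.13), without any 64 h library, and with library size scaling. Without 64 h replicate 2 the log2 fold change was -4.74 for WICANDRAFT_25185 and -5.66 for WICANDRAFT_30943, and without 16 h replicate 2 it was 3.38 for WICANDRAFT_69455. Reads shared between near-identical paralogs were not assessed.

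**Figure D2:**
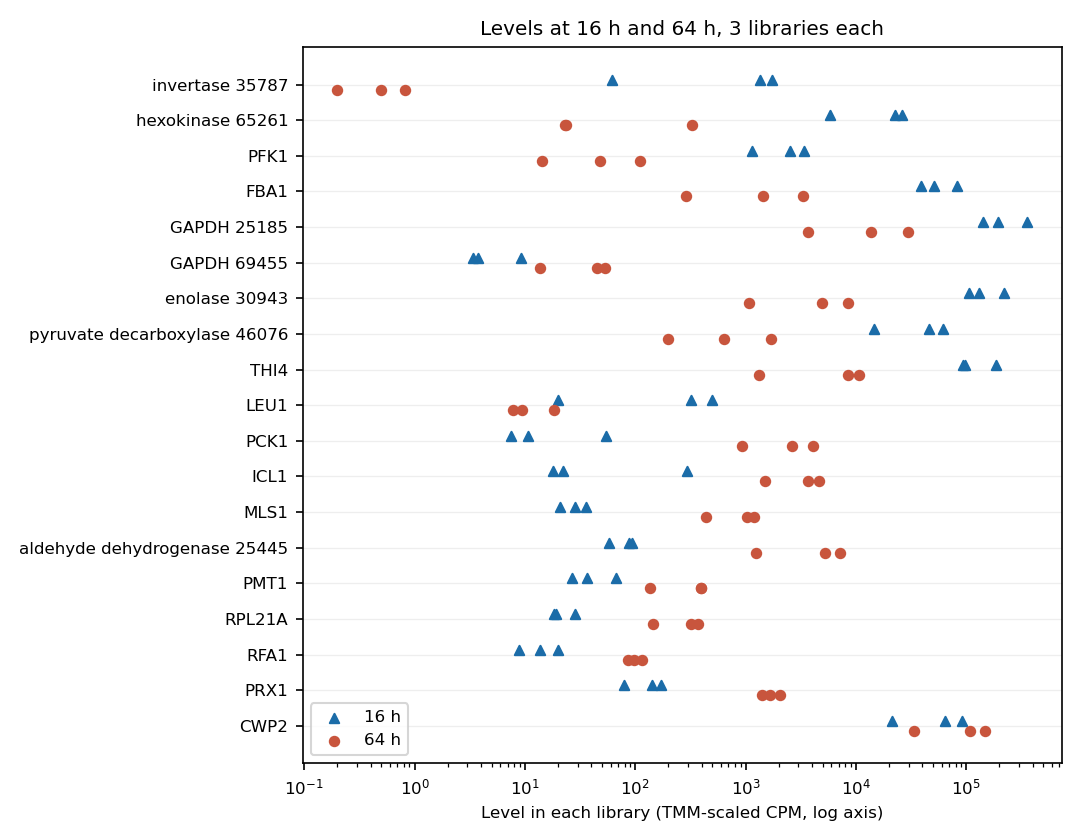
TMM-scaled CPM (log axis) of selected genes in each of the 3 libraries at 16 h (triangles) and at 64 h (circles), numbers being WICANDRAFT locus tags. All rows but that of CWP2 show separate groups, and the pair of GAPDH genes moved in opposite directions.

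Sugar uptake followed. Of 8 genes for invertase and hexose transporters, 4 fell and 0 rose (median -3.02). The fallen count was 2 with only the 6 libraries compared, and 2 with list membership by names only. The list's summed share of counts went from 4.35%, 4.15% and 4.25% to 0.0592%, 0.79% and 0.0144%. Nearly all of that share was the transporter gene WICANDRAFT_84441, with 109779, 65188 and 65276 CPM at 16 h and 578, 9769.6 and 85.7 at 64 h (log2 fold change -4.53, SE 1.21, adjusted p = 0.00901). The groups did not overlap, but 64 h replicate 2 stood far above its group mates, and without it the log2 fold change was -7.92. The call ended with only the 6 libraries compared (log2 fold change -4.46, adjusted p = 0.0832). STL1, a glycerol and proton symporter of the same superfamily, fell from 22.3, 27.1 and 17.7 to 2.49, 1.30 and 1.80 CPM (log2 fold change -3.58, SE 0.40, adjusted p = 2.53e-05).

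The enzymes that lead from pyruvate to ethanol and acetate split by gene. WICANDRAFT_46076, described as a thiamine pyrophosphate-requiring enzyme and placed under pyruvate decarboxylase in KEGG, went from 61404, 14669.7 and 46138 to 632, 1691 and 199 CPM (log2 fold change -5.60, SE 0.89, adjusted p = 0.000333), without overlap. The class V alcohol dehydrogenase WICANDRAFT_62195 dropped from 60091, 13643 and 48209 to 227, 1161 and 65.0 CPM (log2 fold change -6.39, SE 1.04, adjusted p = 0.000383), and without 64 h replicate 2 the log2 fold changes of this pair were -6.61 and -8.12. ADH3 had 53705, 22829 and 23849 CPM at 16 h and 6284, 7693 and 25171 CPM at 64 h. Its groups overlapped through 64 h replicate 3, and it was not called (log2 fold change -1.36, adjusted p = 0.1), while without that library it was (log2 fold change -2.26, adjusted p = 0.00976). In all, 3 of 11 alcohol dehydrogenase genes fell and 1 rose (2 without 16 h replicate 2 or 64 h replicate 3, and 0 with only the 6 libraries compared). The riser was SFA1, known for oxidising formaldehyde bound to glutathione and long-chain alcohols, from 207, 95.4 and 133.6 to 607, 1292 and 237 CPM (log2 fold change 2.29, SE 0.54, adjusted p = 0.00471, and log2 fold change 1.54 without 64 h replicate 2).

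Aldehyde dehydrogenases, which oxidise acetaldehyde and other aldehydes to acids, went both ways. Together with WICANDRAFT_46076 they form a list of 14 genes, of which 4 rose and 3 fell. The largest rise was that of WICANDRAFT_25445, with 58.3, 88.3 and 92.7 CPM at 16 h and 5210.4, 7235 and 1250.2 CPM at 64 h (log2 fold change 5.84, SE 0.89, adjusted p = 0.00024). The lowest 64 h level, in replicate 3, lay more than 10 times above the highest 16 h level. WICANDRAFT_35866 rose from 91.5, 88.0 and 46.4 to 487, 1330.5 and 88.9 CPM, where replicate 3 of 64 h at 88.9 CPM lay within the 16 h range (log2 fold change 3.08, adjusted p = 0.00403, and 1.94 without 64 h replicate 2). WICANDRAFT_80365 went the other way, from 75.6, 81.8 and 96.8 to 8.03, 10.9 and 20.9 CPM (log2 fold change -2.68, SE 0.48, adjusted p = 0.000699). The count of risen members was 2 without 16 h replicate 1 or 64 h replicate 1, or with only the 6 libraries compared. That of fallen members was 5 without 64 h replicate 3.

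Gluconeogenesis and the glyoxylate cycle had the highest share of risen members among the lists. Of 12 genes, 7 rose and 1 fell (0 without 16 h replicate 3), with a median log2 fold change of 1.60 (2.42 with library size scaling), and their summed share of counts went from 0.0869%, 0.14% and 0.138% to 1.29%, 0.783% and 1.14%. PCK1, phosphoenolpyruvate carboxykinase, stood at 7.55, 54.5 and 10.6 CPM at 16 h and at 4073, 2630.2 and 919 CPM at 64 h (log2 fold change 6.71, SE 0.96, adjusted p = 0.000144). ICL1, isocitrate lyase, had 17.8, 295 and 22.3 and 3682, 1498 and 4641 CPM (log2 fold change 4.88, SE 1.13, adjusted p = 0.00414). In both, 16 h replicate 2 was the high library of its group yet below every 64 h library, and without it the log2 fold changes were 8.12 and 7.35. MLS1, malate synthase, rose from 35.5, 28.6 and 20.8 to 1201, 1032 and 442 CPM (log2 fold change 4.98, SE 0.50, adjusted p = 1.3e-05), and a second malate synthase gene, WICANDRAFT_28497, from 118, 157 and 111 to 1688.6, 1778 and 1420.2 CPM (log2 fold change 3.67, SE 0.55, adjusted p = 0.000198). SFC1, the mitochondrial carrier that exchanges succinate for fumarate and so links the glyoxylate and citrate cycles, rose 4.28-fold (adjusted p = 0.00537, log2 fold change 2.10, and 2.73 without 16 h replicate 2).

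Not every gene of that list moved the same way. FBP1, fructose-1,6-bisphosphatase, which undoes the phosphofructokinase step, had 265, 485 and 188 CPM at 16 h and 665, 539 and 182 CPM at 64 h. Its groups overlapped, and it was not called (log2 fold change 0.56, adjusted p = 0.462). It was called as risen with library size scaling (1.34, adjusted p = 0.0429). Without both outlying libraries its log2 fold change was 1.41 (adjusted p = 0.0583). Pyruvate carboxylase gene WICANDRAFT_105169 fell (log2 fold change -0.99, adjusted p = 0.0231), a call that ended with library size scaling (log2 fold change -0.11) and without 16 h replicate 3 or 64 h replicate 3. ACS1, acetyl-CoA synthetase, was called as risen (log2 fold change 1.54, adjusted p = 0.0387), with 193, 619 and 67.5 CPM at 64 h against 123, 76.3 and 103 at 16 h, and overlapping groups. That call ended without 0 h replicate 1, without any 16 h library and without 64 h replicate 2 (log2 fold change 0.38).

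In the citrate cycle 7 of 23 genes rose and 3 fell (median 0.03). KGD4, a subunit of the 2-oxoglutarate dehydrogenase complex, went from 54.0, 118 and 29.5 to 645, 572 and 2135 CPM (log2 fold change 4.06, SE 0.69, adjusted p = 0.000505), with 64 h replicate 3 the highest, and log2 fold changes of 4.74 without 16 h replicate 2 and 3.18 without 64 h replicate 3. ACO1, aconitase, KGD1, the first subunit of the same complex, and SDH3 and SDH4, membrane anchors of succinate dehydrogenase, rose by log2 fold changes of 1.29, 1.12, 1.12 and 1.13. Without 16 h replicate 3 the calls of ACO1, SDH3 and SDH4 ended, without 64 h replicate 1 those of ACO1 and SDH3, and that of SDH3 also without 0 h replicate 1, 16 h replicate 1, 32 h replicate 2 or 64 h replicate 2. LSC2, succinyl-CoA ligase (call lost with library size scaling, -0.84, and with only the 6 libraries compared), and malate dehydrogenase gene WICANDRAFT_34656 fell (-1.70 and -2.32). Leaving out 16 h replicate 3 gave 3 risen members and 64 h replicate 1 gave 4, and the count of fallen members 7 without 16 h replicate 2 and 5 without 0 h replicate 3 or 64 h replicate 2. Scaling by library size gave 11 risen and 1 fallen, and a fit of only the 6 libraries compared gave 1 and 1. In the respiratory chain 3 of 46 genes rose and 7 fell, under the shares of all genes, and 22 rose with library size scaling. The fallen count was 3, 15 and 2 without 16 h replicate 1, 2 or 3 and 1 without 64 h replicate 1, and the risen count 6 without 0 h replicate 3 or 16 h replicate 1. In a fit of only the 6 libraries compared 0 rose and 0 fell.

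In the GO term fatty acid beta-oxidation 6 of 13 genes rose and 1 fell (median 1.23), with 3 risen when 16 h replicate 1, 16 h replicate 3 or 64 h replicate 1 was left out. The wider list of beta-oxidation and peroxisome genes had 38 tested members, 8 of them risen and 3 fallen. Its risen share of 21.1% was near the 18.0% of all genes tested, and its fallen share was 7.89% against 20.8%. It had 14 risen without 16 h replicate 2, 4 risen without 16 h replicate 1 or 3, and 1 fallen without 16 h replicate 3. Library size scaling gave 19 risen and 1 fallen genes in the wider list. With only the 6 libraries compared 3 rose and 1 fell there, and 4 rose when a change of over 1.5-fold was required. PEX11, which shapes and multiplies peroxisomes, had 12.5, 60.7 and 14.2 CPM at 16 h and 284, 177 and 191 CPM at 64 h (log2 fold change 2.90, SE 0.54, adjusted p = 0.000944, and 4.02 without 16 h replicate 2). CRC1, the mitochondrial carnitine carrier for acetyl units, went from 122, 151 and 60.2 to 794, 853 and 468 CPM (log2 fold change 2.67, SE 0.68, adjusted p = 0.00687). The groups were separate for both. FOX2, the multifunctional enzyme of beta-oxidation, rose from 25.6, 36.4 and 19.1 to 95.8, 247 and 45.6 CPM (log2 fold change 2.26, SE 0.48, adjusted p = 0.0022, and 1.39 without 64 h replicate 2).

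Genes for storage carbohydrate and glycerol fell in part. Of 16 genes for trehalose, glycogen or glycerol, 8 fell and 0 rose (median -1.67). Library size scaling gave a median of -0.81, 5 fallen and 1 risen, and 1 also rose without 64 h replicate 3. Glycerol-3-phosphate dehydrogenase gene WICANDRAFT_30049, which opens the route to glycerol, went from 379.7, 397 and 626 to 4.14, 5.69 and 3.63 CPM (log2 fold change -6.70, SE 0.52, adjusted p = 3.41e-06). All 64 h levels lay under 6 CPM. GPH1, glycogen phosphorylase, fell from 3791, 4227 and 4989 to 299, 658 and 120.8 CPM (log2 fold change -3.59, SE 0.58, adjusted p = 0.000358), and TPS1, which makes trehalose phosphate, from 374, 235 and 391 to 55.4, 59.5 and 55.6 CPM (log2 fold change -2.55, SE 0.30, adjusted p = 4.45e-05). GPH1 had -4.37 once 64 h replicate 2 was left out.

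**Figure D3:**
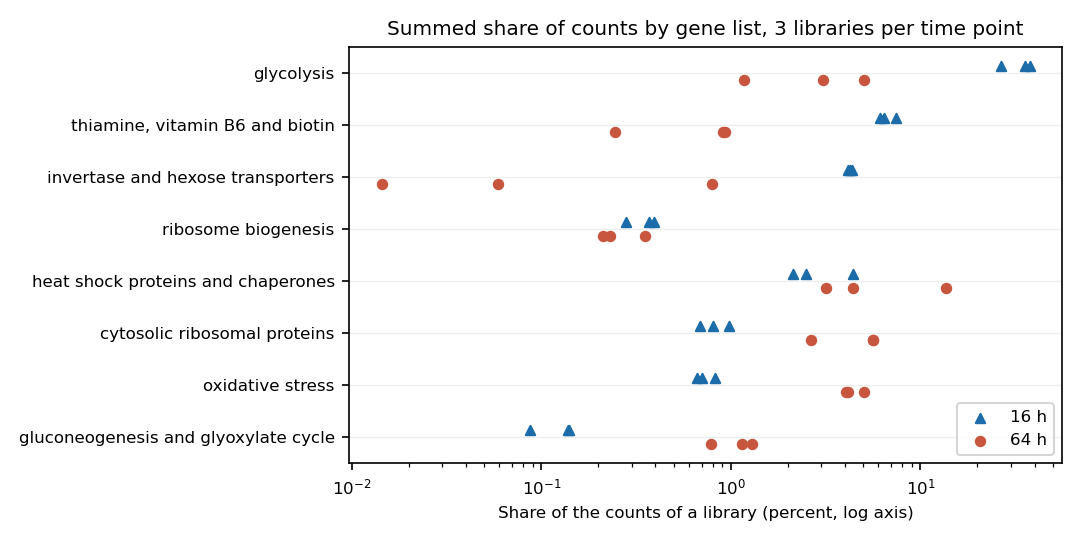
Share of the counts of each library (percent, log axis) summed over 8 gene lists, for 3 libraries at 16 h (triangles) and 3 at 64 h (circles). The glycolysis share fell from between 26.6% and 37.7% to between 1.17% and 5.03%, and the heat shock share of 64 h replicate 3 reached 13.6%.

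Vitamin synthesis was among the lists with the most fallen members. Of 9 genes for thiamine, vitamin B6 and biotin, 8 fell and 1 rose (median -2.17, and 5 fell with library size scaling), and the summed share of counts went from 7.47%, 6.42% and 6.14% to 0.906%, 0.932% and 0.244%. With only the 6 libraries compared in the fit 4 fell and 0 rose. THI4, which makes the thiazole part of thiamine, went from 186723, 98119 and 92499 to 8488, 10778 and 1337 CPM (log2 fold change -4.19, SE 0.82, adjusted p = 0.0013). THI7, a thiamine transporter, fell from 899, 420.0 and 1161 to 35.2, 45.0 and 42.7 CPM (log2 fold change -4.34, SE 0.45, adjusted p = 1.78e-05), and THI6, which joins the parts of thiamine, from 2846, 424 and 1956 to 188, 158 and 84.1 CPM (log2 fold change -3.60, SE 0.63, adjusted p = 0.000607). In all 3 genes every 16 h library lay above every 64 h library. The riser was WICANDRAFT_30969, of a family known for vitamin B6 synthesis, from 12.2, 23.6 and 7.77 CPM to 118 and 67.3 CPM in 64 h replicates 1 and 2 (log2 fold change 2.20, adjusted p = 0.0222). Its level in 64 h replicate 3 lay within the 16 h range, and the call ended without 16 h replicate 1, 16 h replicate 3 or 64 h replicate 1 (log2 fold change 1.51 without the last).

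Amino acid synthesis fell in the branched-chain route. Of its 9 genes 7 fell and 0 rose (median -2.09). That fallen count was 4 without 64 h replicate 1, and also with library size scaling and with only the 6 libraries compared. LEU1, isopropylmalate isomerase, had 319, 20.01 and 495 CPM at 16 h and 7.83, 18.3 and 9.44 CPM at 64 h (log2 fold change -4.55, SE 0.78, adjusted p = 0.000558, and -3.83 without 16 h replicate 3). Replicate 2 of 16 h, at 20.01 CPM, lay just above the highest 64 h level. LEU4, which opens the leucine branch, went from 942, 286 and 641 to 102, 152 and 41.9 CPM (log2 fold change -2.66, SE 0.50, adjusted p = 0.00102), and LEU2, which follows LEU1, from 281, 122 and 230.4 to 58.3, 56.1 and 33.9 CPM (log2 fold change -2.09, SE 0.34, adjusted p = 0.00039).

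In the aromatic amino acid route the fallen share, 21.4%, was near the 20.8% of all genes tested. Purine genes fell in part, and sulfate genes went both ways. ARO1, the enzyme of 5 steps of the shikimate route to aromatic amino acids, fell from 239, 443 and 299 to 20.7, 32.8 and 30.9 CPM (log2 fold change -3.54, SE 0.40, adjusted p = 3.08e-05), while 3 of 14 genes of that list fell in all (1 with library size scaling). Of 8 purine synthesis genes 4 fell and 0 rose (3 fell with library size scaling), ADE4, which opens the route, from 51.1, 7.74 and 59.97 to 3.79, 4.30 and 4.39 CPM (log2 fold change -3.25, SE 0.55, adjusted p = 0.000508). In sulfate assimilation 6 of 21 genes rose and 3 fell (12 and 2 with library size scaling). MET4, the activator of that route, rose from 34.2, 8.45 and 20.1 to 135, 74.9 and 138 CPM (log2 fold change 2.47, SE 0.50, adjusted p = 0.00168), whereas MET16, which reduces activated sulfate, fell from 17.4, 43.0 and 23.5 to 3.79, 3.26 and 5.43 CPM (log2 fold change -2.75, SE 0.34, adjusted p = 5.91e-05). Neither gene's groups overlapped.

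Heme and sterol genes moved at named steps. In the KEGG map of porphyrin metabolism 9 of 18 genes fell and 1 rose, or 3 without 16 h replicate 2 (median -0.90, and 0.06 with library size scaling). HEM13, the oxygen-requiring coproporphyrinogen oxidase, had 3969, 8369.9 and 2126 CPM at 16 h and 188, 462 and 123 CPM at 64 h (log2 fold change -4.23, SE 0.65, adjusted p = 0.000268), and HEM14, the enzyme that follows it, 153, 511 and 183 and 33.4, 23.0 and 23.3 CPM (log2 fold change -3.41, SE 0.45, adjusted p = 7.6e-05). The 16 h levels were highest in replicate 2, and without that library the log2 fold changes were -3.56 and -2.66, while HEM13 had -4.95 without 64 h replicate 2. Of 24 ergosterol and mevalonate genes 5 rose (20.8%) and 7 fell (29.2%), against 18.0% and 20.8% of all genes tested. The risen count was 3 without 64 h replicate 1 or with only the 6 libraries compared, and 8 without both outlying libraries. Under library size scaling 10 rose and 4 fell. ERG20, farnesyl diphosphate synthase, fell from 69.6, 30.7 and 81.7 to 6.78, 8.38 and 6.39 CPM (log2 fold change -3.08, SE 0.39, adjusted p = 6.44e-05), and ERG3, sterol desaturase, from 1461, 1061 and 1052 to 165, 208 and 62.4 CPM (log2 fold change -3.04, SE 0.57, adjusted p = 0.00107). ERG10, acetoacetyl-CoA thiolase, the entry to the mevalonate route, rose 7.14-fold (adjusted p = 0.00511), with 83.4 CPM in 64 h replicate 3 inside the 16 h range, and a log2 fold change of 2.16 against 2.84 without 64 h replicate 2.

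Transporters of nitrogen compounds fell relative to the bulk of the genes. Of 52 amino acid permease and oligopeptide transporter genes, 21 fell and 4 rose (median -0.72), but with library size scaling 7 fell, 10 rose and the median was 0.35. A fit of only the 6 libraries compared gave 11 fallen and 2 risen. Amino acid transporter gene WICANDRAFT_48765 went from 1231, 201 and 1314 to 3.44, 8.99 and 14.4 CPM (log2 fold change -6.67, SE 0.87, adjusted p = 7.65e-05). Oligopeptide symporter gene WICANDRAFT_83892 fell from 46634, 15294 and 36688 to 2760.2, 3479 and 1074 CPM (log2 fold change -3.75, SE 0.69, adjusted p = 0.000883). These transporters kept their direction and call with library size scaling (-5.58 and -2.87). Uptake of metals was mixed: SMF3, a vacuolar iron exporter, fell from 406, 279 and 342 to 47.3, 36.5 and 35.3 CPM (log2 fold change -3.11, SE 0.31, adjusted p = 1.34e-05), and ARN1, a siderophore transporter, rose from 10.4, 9.16 and 7.85 to 50.6, 29.0 and 27.2 CPM (log2 fold change 1.96, SE 0.31, adjusted p = 0.000317). Of 31 zinc and iron genes 9 rose and 3 fell (5 without 16 h replicate 1), or 13 and 2 with library size scaling. Their risen count was 3 with only the 6 libraries compared. Transport genes were also among the 10 largest rises: WICANDRAFT_84684, a permease of the major facilitator superfamily, went from 108, 39.4 and 107 to 5733, 3697 and 1167 CPM (log2 fold change 5.38, SE 0.98, adjusted p = 0.000796).

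Genes that build ribosomes and genes for ribosomal proteins moved apart. Ribosome biogenesis covers the nucleolar factors that process rRNA and assemble subunits, and ribosomal proteins are the parts. Of 115 biogenesis genes 65 fell and 0 rose, or 1 without 16 h replicate 2 (median -1.04). With library size scaling 6 fell and the median was -0.11, so most of these falls are relative to the bulk of the genes. The fallen count was 24 with only the 6 libraries compared in the fit. UTP13, of the complex that processes 18S rRNA, went from 24.8, 23.6 and 25.1 to 1.40, 2.74 and 3.34 CPM (log2 fold change -3.29, SE 0.34, adjusted p = 1.52e-05), and NOP56, of the particles that methylate rRNA, from 48.1, 21.2 and 43.1 to 6.13, 11.3 and 6.01 CPM (log2 fold change -2.26, SE 0.40, adjusted p = 0.000673). Each fell under either scaling (-2.33 and -1.35 with library size), and neither gene's groups overlapped.

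Of 90 genes for cytosolic ribosomal proteins, 46 rose and 2 fell (median 1.35, and 2.20 with library size scaling, where 78 rose). Their summed share of counts went from 0.972%, 0.687% and 0.805% to 5.64%, 5.65% and 2.65%, with 64 h replicate 3 the lowest of its group and above every 16 h library. RPL21A, of the large subunit, had 19.2, 28.3 and 18.2 CPM at 16 h and 321, 368 and 145 CPM at 64 h (log2 fold change 3.67, SE 0.48, adjusted p = 8.34e-05). RPS28A, of the small subunit, had 164, 81.0 and 60.7 and 1145, 1272 and 401 CPM (log2 fold change 3.21, SE 0.55, adjusted p = 0.000552), and RPP2A, of the ribosome stalk, 306, 235 and 118 and 1889.8, 2232 and 448 CPM (log2 fold change 2.79, SE 0.60, adjusted p = 0.00242). In each the 64 h libraries were the higher ones, replicate 3 least so. The count of risen members rested on single libraries: leaving out 16 h replicate 3 gave 21, 64 h replicate 1 gave 28, and 64 h replicate 2 gave 19. The count of fallen members was 5 without 16 h replicate 2 and 1 without 64 h replicate 1. A fit of only the 6 libraries compared gave 16 risen and 0 fallen. The mitochondrial counterpart did not follow, with 0 risen and 6 fallen of 42 (leaving out 16 h replicate 3 gave 3 fallen, 64 h replicate 1 gave 2, and 16 h replicate 2 gave 10). With library size scaling 10 of these rose and 0 fell, and 2 fell with only the 6 libraries compared.

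Genes of DNA replication and repair and of mitosis had more risen than fallen members. Among 53 replication and histone genes, 27 rose and 4 fell (median 1.18). Of 75 genes of mitosis and the cell cycle 30 rose and 7 fell (median 1.12). With a mean of at least 10 CPM required, 4552 of the 6327 genes were left in the test, and members below that level were not tested. Under that filter the risen counts of these lists were 10 and 19. With only the 6 libraries compared in the fit they were 17 and 19. The fallen count of the mitosis list was 3 in each of these settings. RFA1, the largest subunit of the protein that binds single-stranded DNA, stood at 13.8, 8.84 and 19.8 CPM at 16 h and at 97.9, 85.6 and 115 CPM at 64 h (log2 fold change 2.81, SE 0.32, adjusted p = 3.08e-05). POL3, the catalytic subunit of DNA polymerase delta, went from 2.42, 4.32 and 3.70 to 28.7, 25.4 and 17.3 CPM (log2 fold change 2.77, SE 0.36, adjusted p = 7.98e-05), and RAD52, which starts homologous recombination, from 11.9, 9.68 and 10.5 to 89.4, 73.5 and 159.9 CPM (log2 fold change 3.33, SE 0.37, adjusted p = 2.73e-05). In all 3 the lowest 64 h level lay above the highest 16 h level. CKS1, which binds the cell cycle kinase, rose from 1.76, 3.49 and 2.16 to 45.4, 44.4 and 14.03 CPM (log2 fold change 3.81, SE 0.58, adjusted p = 0.000241), DOC1, of the anaphase-promoting complex, from 1.10, 2.65 and 1.67 to 31.7, 22.1 and 25.9 CPM (log2 fold change 3.87, SE 0.35, adjusted p = 7.83e-06), and cyclin B gene WICANDRAFT_31360 from 3.96, 4.13 and 3.74 to 77.1, 44.2 and 43.5 CPM (log2 fold change 3.80, SE 0.41, adjusted p = 2.28e-05). These levels at 16 h were a few CPM, above the floor of 3 counts, 0.0777 to 0.123 CPM in those libraries before TMM scaling.

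Among histone genes both directions were seen. In the GO term nucleosome 4 of 11 genes fell and 1 rose (0 without 16 h replicate 3, 64 h replicate 1 or 64 h replicate 2), or 3 and 3 with library size scaling, and the term's summed share of counts went from 0.221%, 0.159% and 0.227% to 0.467%, 0.766% and 0.275%. HTA2, histone H2A, fell from 277, 106 and 192 to 12.6, 15.2 and 19.97 CPM (log2 fold change -3.59, SE 0.51, adjusted p = 0.00013), and HTB2, histone H2B, from 476, 85.4 and 189 to 35.6, 33.3 and 6.64 CPM (log2 fold change -3.31, SE 0.74, adjusted p = 0.00313, and -2.45 without 16 h replicate 1). HHO1, the linker histone H1, rose from 88.4, 22.2 and 42.9 to 448, 661 and 164 CPM (log2 fold change 3.05, SE 0.68, adjusted p = 0.00311, and 3.70 without 16 h replicate 1). The libraries were made from polyadenylated RNA.

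KEGG maps of DNA replication and repair were among those with high risen shares. Mismatch repair had 14 risen and 1 fallen genes of 22, DNA replication 18 and 1 of 32, base excision repair 12 and 1 of 22, and homologous recombination 9 and 0 of 20 (16 and 1 without 16 h replicate 2). These maps share genes: RFA1 and POL3 are each in at least 3 of them. The fallen count was 0 in mismatch repair without 16 h replicate 1 or 3 or 64 h replicate 1 or 2. It was 0 in base excision repair without 16 h replicate 3, 32 h replicate 1, 48 h replicate 2 or 3 or 64 h replicate 1, and 2 there and in DNA replication without 64 h replicate 3.

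Protein glycosylation and folding in the endoplasmic reticulum formed a further risen group. The KEGG map of O-glycan synthesis had 8 risen and 1 fallen genes of 14, that of N-glycan synthesis 12 and 1 of 29, and that of protein processing in the endoplasmic reticulum 33 and 9 of 86. The fallen count was 0 in the first without 16 h replicate 3 or 64 h replicate 1, and 3 in the second without 16 h replicate 2. PMT1 and PMT4 encode mannosyltransferases that start O-glycans on secreted and wall proteins. PMT1 had 36.3, 67.4 and 26.9 CPM at 16 h and 391, 396 and 136 CPM at 64 h (log2 fold change 2.82, SE 0.48, adjusted p = 0.000508), PMT4 22.0, 18.5 and 19.7 and 132, 104.3 and 67.9 CPM (log2 fold change 2.34, SE 0.32, adjusted p = 9.7e-05), and their relative WICANDRAFT_62595 11.7, 20.6 and 17.5 and 120.4, 165 and 74.6 CPM (log2 fold change 2.85, SE 0.41, adjusted p = 0.000139). All 3 had every 64 h library above every 16 h library, with 64 h replicate 3 the lowest.

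DPM1 makes dolichol phosphate mannose, the mannose donor of both glycan routes. Its level went from 31.6, 6.91 and 15.1 to 388, 499 and 110.4 CPM (log2 fold change 4.22, SE 0.71, adjusted p = 0.000474, and 4.91 without 16 h replicate 1). WBP1, of the enzyme that moves N-glycans onto proteins, rose from 9.97, 5.74 and 12.0 to 52.01, 56.1 and 26.02 CPM (log2 fold change 2.27, SE 0.40, adjusted p = 0.000654), and WICANDRAFT_27703, a glucosidase II subunit that trims them, from 4.40, 7.03 and 6.55 to 77.4, 53.1 and 26.1 CPM (log2 fold change 3.12, SE 0.43, adjusted p = 0.000107). The groups did not overlap for any of them. KAR2, the main chaperone of the compartment, rose from 9.67, 6.52 and 16.1 to 56.9, 115 and 98.2 CPM (log2 fold change 3.06, SE 0.38, adjusted p = 5.91e-05).

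Other chaperone results depended on single libraries. Of 67 heat shock and chaperone genes 16 rose and 7 fell, and the risen count was 8 without 16 h replicate 1 and 10 without 16 h replicate 3 or 64 h replicate 3. Scaled by library size, 30 rose and 2 fell, and with only the 6 libraries compared 7 rose and 3 fell. The summed share of counts went from 2.50%, 4.39% and 2.14% to 3.19%, 4.43% and 13.6%, with 64 h replicate 3 apart. HSP26, a small heat shock protein, had 2071, 1142 and 1503 CPM at 16 h and 1578, 2448 and 30404 CPM at 64 h, overlapping but for that library. It was called as risen (log2 fold change 2.87, adjusted p = 0.0376), with 0.36 and adjusted p = 0.727 without 64 h replicate 3, and the call also ended without any 16 h library. HSP82, of the HSP90 family, rose from 117, 295 and 127 to 602, 715 and 4706 CPM (log2 fold change 3.48, SE 0.90, adjusted p = 0.00754). Without 64 h replicate 3 its log2 fold change was 1.87, and its adjusted p of 0.0499 was just under the threshold.

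The list of oxidative stress defence genes took a larger share of counts at 64 h, without overlap. It had 5.06%, 4.04% and 4.14% at 64 h against 0.664%, 0.826% and 0.706% at 16 h. Of its 42 genes 13 rose and 4 fell, and leaving out 16 h replicate 1 gave 8 risen, 16 h replicate 3 gave 6 risen and 2 fallen, and 64 h replicate 1 gave 1 fallen. Library size scaling gave 28 risen and 0 fallen, and the replicate block gave 8 risen. With only the 6 libraries compared in the fit 4 rose and 0 fell. The GO term response to oxidative stress had 24 risen (17.1%) and 27 fallen (19.3%) genes of 140, near the 18.0% and 20.8% of all genes tested. Its share of counts went the other way, from 17.2%, 12.6% and 15.3% at 16 h to 7.29%, 8.82% and 6.86% at 64 h. PRX1, a mitochondrial peroxiredoxin, had 172, 143 and 78.5 CPM at 16 h and 2036, 1657 and 1423 CPM at 64 h (log2 fold change 3.70, SE 0.46, adjusted p = 5.89e-05). Peroxiredoxin-family gene WICANDRAFT_27451 had 423, 711 and 189 and 12236, 7413 and 4932 CPM (log2 fold change 4.22, SE 0.66, adjusted p = 0.000279), and SOD1, the copper and zinc superoxide dismutase, 3974, 3628 and 1889 and 19944, 21495 and 9529 CPM (log2 fold change 2.42, SE 0.54, adjusted p = 0.00301). In these 3 genes all 64 h libraries were above all 16 h libraries. Glutathione S-transferase gene WICANDRAFT_86165 rose from 20.8, 10.9 and 21.7 to 239.9, 185 and 184 CPM (log2 fold change 3.51, SE 0.42, adjusted p = 4.44e-05).

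Of 18 genes of the cell wall list 2 rose and 5 fell (median log2 fold change -0.54), or 5 and 2 with library size scaling (median 0.39). With only the 6 libraries compared 3 fell. The list's summed share of counts was 4.88%, 10.6% and 2.996% at 16 h and 13.8%, 15.3% and 8.07% at 64 h, and overlapped through 16 h replicate 2 and 64 h replicate 3. CWP2, a wall mannoprotein with the most counts in every 64 h library, took 10.6%, 12.0% and 4.53% of those libraries. Its levels of 64411, 91044 and 21137 CPM at 16 h and 107064, 148296 and 33455 CPM at 64 h overlapped. It was not called (log2 fold change 0.71, SE 0.68, adjusted p = 0.427), though it was with library size scaling (1.49). Without both outlying libraries its log2 fold change was 1.58 (adjusted p = 0.0657). CCW12 stood at 45093, 71226 and 17691 and 23373, 30243 and 22656 CPM and was not called either (log2 fold change -0.81, adjusted p = 0.321, and 0.08 with library size scaling). GAS3, of a family that remodels wall glucan, rose from 84.2, 21.1 and 50.1 to 543, 489.7 and 325 CPM (log2 fold change 3.13, SE 0.45, adjusted p = 0.000165). SCW11, a glucanase, and CTS1, chitinase, both known for cell separation, fell from 59.6, 11.5 and 52.3 to 2.29, 2.65 and 1.92 CPM (log2 fold change -4.17, SE 0.61, adjusted p = 0.000175) and from 104.4, 79.7 and 59.1 to 10.5, 8.94 and 12.4 CPM (log2 fold change -2.93, SE 0.37, adjusted p = 6.56e-05).

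Of the 4 tested ester-forming and esterase genes 0 rose and 0 fell in edgeR's test. In that list TGL2 was the member whose call depended on a library, being called as fallen without 64 h replicate 3 (log2 fold change -2.19, against -0.37 with all libraries). IAH1, which splits isoamyl acetate, had 10.3, 15.5 and 11.1 CPM at 16 h and 18.9, 11.1 and 17.3 CPM at 64 h, overlapping groups (log2 fold change 0.36, adjusted p = 0.415). With library size scaling it was called as risen (1.29, adjusted p = 0.0309), the 1 such member of the ester list. Transaminases and the decarboxylase of the Ehrlich route, which turns amino acids into fusel alcohols, split: ARO8 (1.01, adjusted p = 0.137) and ARO9 (1.48, adjusted p = 0.0797) were not called, BAT1 was called as fallen (-1.51, adjusted p = 0.0305) and ARO10 as risen (1.23, adjusted p = 0.0275). BAT1 lost its call without 16 h replicate 3, 64 h replicate 1 or 64 h replicate 2 and with library size scaling, and had a log2 fold change of -2.47 without 64 h replicate 3. ARO9 was called as risen without 16 h replicate 3 (log2 fold change 2.39), by DESeq2 (1.51), by limma-voom (2.20) and with library size scaling (2.41). ARO8 was called as risen with library size scaling (2.17), and had 0.18 without 64 h replicate 3. ARO10 lost its call without 16 h replicate 1, 16 h replicate 3 or 64 h replicate 3 (log2 fold change 0.57 without the last). With only the 6 libraries compared neither BAT1 nor ARO10 was called (adjusted p = 0.125 and 0.137). The alcohol acetyltransferases ATF1 and ATF2 and the ethyl ester synthases EEB1 and EHT1 were not matched by symbol and were not analysed here.

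Regulators were found on both sides. SIP4 and GSM1, zinc-cluster proteins, the first known for activating gluconeogenic genes, had 3.74, 25.2 and 2.44 and 86.5, 42.7 and 58.2 CPM (log2 fold change 2.58, SE 0.71, adjusted p = 0.0106) and 14.8, 28.1 and 12.0 and 174, 60.1 and 154 CPM (log2 fold change 2.82, SE 0.45, adjusted p = 0.000333). WAR1, a zinc-cluster protein known from the response to weak acids, rose from 101, 46.2 and 87.3 to 460.3, 367 and 515 CPM (log2 fold change 2.52, SE 0.38, adjusted p = 0.000208). SIP4 had its high 16 h level in replicate 2, without which the log2 fold change was 4.35. Its call ended with only the 6 libraries compared (adjusted p = 0.061). On the other side WICANDRAFT_78559, annotated as a homeobox factor, went from 561, 533 and 481 to 1.55, 6.25 and 2.80 CPM (log2 fold change -7.21, SE 0.55, adjusted p = 3.41e-06, and -7.91 without 64 h replicate 2). Of 19 zinc-cluster genes 5 rose and 5 fell (26.3% each, with 8 fallen without 16 h replicate 2). Of 87 protein kinase genes 14 rose (16.1%, or 9 genes without 16 h replicate 1 or 3) and 22 fell (25.3%, or 14 genes without 64 h replicate 1). Among all genes tested 18.0% rose and 20.8% fell. With library size scaling 32 kinase genes rose and 11 fell, as did 5 and 1 zinc-cluster genes. With only the 6 libraries compared 8 kinase genes rose and 10 fell, and 3 zinc-cluster genes fell.

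Across the 23 KOG categories with at least 10 tested genes, the highest risen shares were those of replication, recombination and repair (54 of 160), chromatin (29 of 87), cytoskeleton (28 of 87), cell wall and membrane (13 of 44) and cell cycle (42 of 148). The highest fallen shares were those of nucleotide (34 of 75), coenzyme (38 of 91) and amino acid transport and metabolism (74 of 258). Carbohydrate transport and metabolism had 47 risen and 59 fallen genes of 219, near the background, while its share of all counts went from 40.2%, 28.8% and 38.5% to 7.40%, 8.30% and 5.10%. Translation had 58 risen and 68 fallen of 336, with the ribosomal proteins among the former and biogenesis factors among the latter. With library size scaling 136 of them rose and 6 fell. Its risen count was 28, 35 and 30 without 16 h replicate 3, 64 h replicate 1 or 64 h replicate 2, and its fallen count 45 without 64 h replicate 1. The risen count of cell wall and membrane was 8 without 64 h replicate 1. With library size scaling the median log2 fold change of the nucleotide, coenzyme and amino acid categories was 0.19, 0.10 and 0.71, and 14, 15 and 22 of their genes fell.

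**Figure D4:**
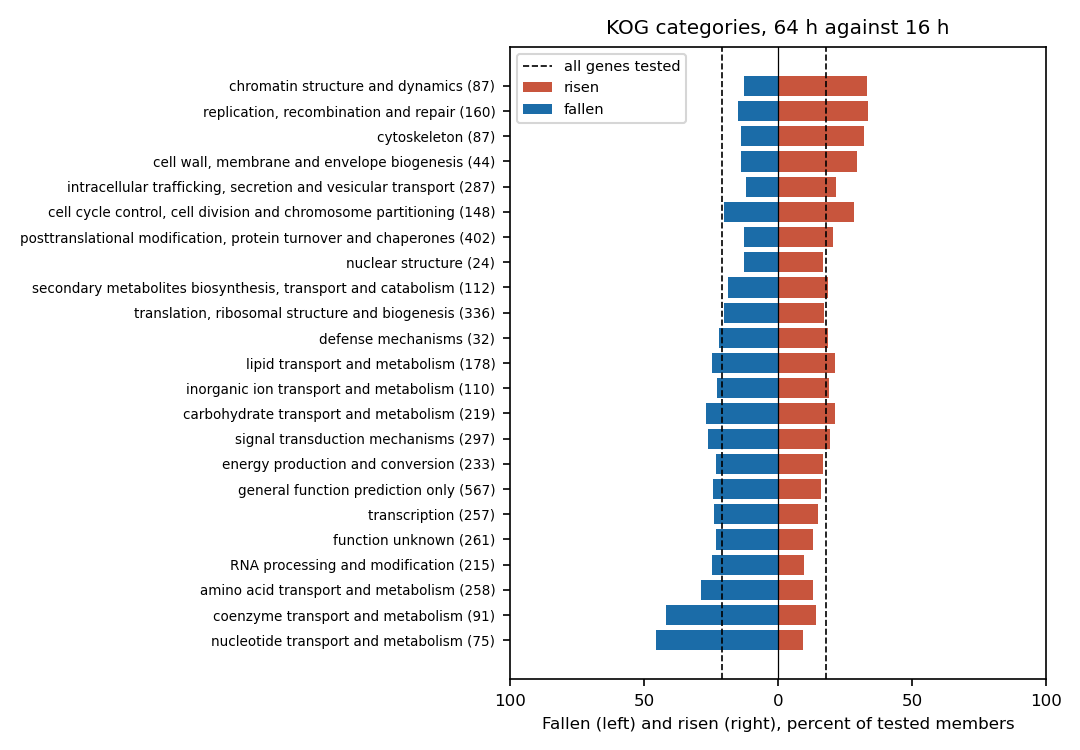
Percent of the tested genes of 23 KOG categories that rose (right) or fell (left) from 16 h to 64 h, with the number tested in parentheses and the shares of all genes tested, 18.0% and 20.8%, as dashed lines. Nucleotide and coenzyme metabolism had the highest fallen shares, 45.3% and 41.8%.

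Among KEGG maps other than those of human disease and animal signalling, the highest fallen shares after branched-chain amino acid synthesis (8 of 11) were those of cyanoamino acid (9 of 14), vitamin B6 (6 of 10), thiamine (6 of 11), galactose (9 of 17) and fructose and mannose metabolism (12 of 23). The fallen count was 4 without 64 h replicate 1 in the branched-chain and cyanoamino acid maps, and 5 in the former without 16 h replicate 3 or 64 h replicate 2. The map of glycolysis and gluconeogenesis had 25 fallen and 7 risen genes of 49. Among named GO terms, the glycolytic process had 16 fallen of 17, the nucleolus 37.5% of 277 (with library size scaling 10 fell and 41 rose), carbohydrate transport 11 of 25, the kinetochore 20 risen of 47 and DNA repair 85 of 238. The GO term gluconeogenesis had 10 fallen and 1 risen genes of 12, and its members differ from those of the gluconeogenesis and glyoxylate list.

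The remaining largest changes were of enzymes with general names. WICANDRAFT_88497, a reductase of broad substrate range, rose from 14.2, 7.10 and 9.64 to 791, 763 and 230.4 CPM (log2 fold change 5.85, SE 0.70, adjusted p = 4.45e-05). WICANDRAFT_34833, gamma-glutamyltransferase, which splits glutathione, rose from 4.91, 11.1 and 5.17 to 193, 161 and 53.3 CPM (log2 fold change 4.27, SE 0.52, adjusted p = 4.95e-05), and WICANDRAFT_92824, a quinone oxidoreductase, from 25.4, 16.3 and 22.5 to 239, 1039 and 45.9 CPM (log2 fold change 4.36, SE 1.04, adjusted p = 0.00492, and 2.73 without 64 h replicate 2). Every 64 h level lay above every 16 h level in each. Among the falls were WICANDRAFT_77374, of the haloacid-halidohydrolase family, from 4320.4, 548 and 4188 to 9.72, 31.2 and 2.26 CPM (log2 fold change -7.71, SE 1.07, adjusted p = 0.000115, and -8.98 without 64 h replicate 2), transporter gene WICANDRAFT_63188 from 3162, 224 and 3936 to 10.9, 49.5 and 2.84 CPM (log2 fold change -6.86, SE 1.19, adjusted p = 0.000598, and -8.48 without 64 h replicate 2), and HEL2, a ubiquitin ligase of ribosome quality control, from 206, 2058 and 126 to 13.0, 8.99 and 27.2 CPM (log2 fold change -5.60, SE 0.92, adjusted p = 0.000408, and -3.34 without 16 h replicate 2).

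The libraries between, at 32 h and 48 h, show which differences are also differences of 64 h from the hours before it. Against the mean of 32 h and 48 h, 249 genes (3.94%) rose and 70 (1.11%) fell at 64 h, 5.04% in all. The 3 libraries of 64 h enter both comparisons. MLS1 had 104.2, 155 and 106 CPM at 32 h and 418, 209 and 192 CPM at 48 h, and its log2 fold change of 64 h against their mean was 2.29 with adjusted p = 0.0188. PMT1 had 91.7, 94.9 and 159 and 81.7, 155 and 129 CPM (1.38 with adjusted p = 0.0462), and RPL21A 60.7, 68.5 and 109 and 49.1, 77.9 and 48.3 CPM (2.03 with adjusted p = 0.0202), so these 3 genes were called in both comparisons. The level of PMT1 in 64 h replicate 3 (136 CPM) lay within its range at 32 h and 48 h. PCK1 (1.62 with adjusted p = 0.128) and ICL1 (1.15 with adjusted p = 0.398) were not called against the hours between, nor was RFA1 (0.41 with adjusted p = 0.334).

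Some transcripts fell from 16 h and yet stood higher at 64 h than at 32 h and 48 h. FBA1 had 218, 229.6 and 603 CPM at 32 h and 154, 395 and 221 CPM at 48 h, below its 1438, 3287 and 291 CPM at 64 h except in replicate 3 (log2 fold change 2.48 with adjusted p = 0.0378). WICANDRAFT_34103, sorbitol dehydrogenase, fell against both, from 1173, 644 and 1463 CPM at 16 h to 51.0, 54.5 and 49.7 CPM at 64 h (log2 fold change -4.40, SE 0.39, adjusted p = 6.91e-06), with a log2 fold change of -1.40 with adjusted p = 0.0271 against the hours between. WICANDRAFT_76799, cytochrome c, went from 518, 70.2 and 471 to 18.2, 24.4 and 21.5 CPM (log2 fold change -4.04, SE 0.57, adjusted p = 0.000135, and -2.12 with adjusted p = 0.0309 against the hours between). These later calls rest on single libraries: with 64 h replicate 1, 64 h replicate 2, 32 h replicate 1 or 48 h replicate 3 left out, edgeR called 0 genes (922, 909, 1322 and 1262 genes had an unadjusted p under 0.05), with 32 h replicate 2 left out it called 3 as risen and 0 as fallen, with 48 h replicate 1 left out 9 and 1, and with 64 h replicate 3 left out 724 rose and 622 fell. The risen count was also 131, 165 and 559 without 0 h replicate 1, 0 h replicate 2 or 16 h replicate 2, and the fallen count 25, 36, 282 and 41 without 0 h replicate 1, 0 h replicate 2, 16 h replicate 2 or 48 h replicate 2. In the full set DESeq2 called 607 risen and 265 fallen genes, and limma-voom 2 and 1.

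**Figure D5:**
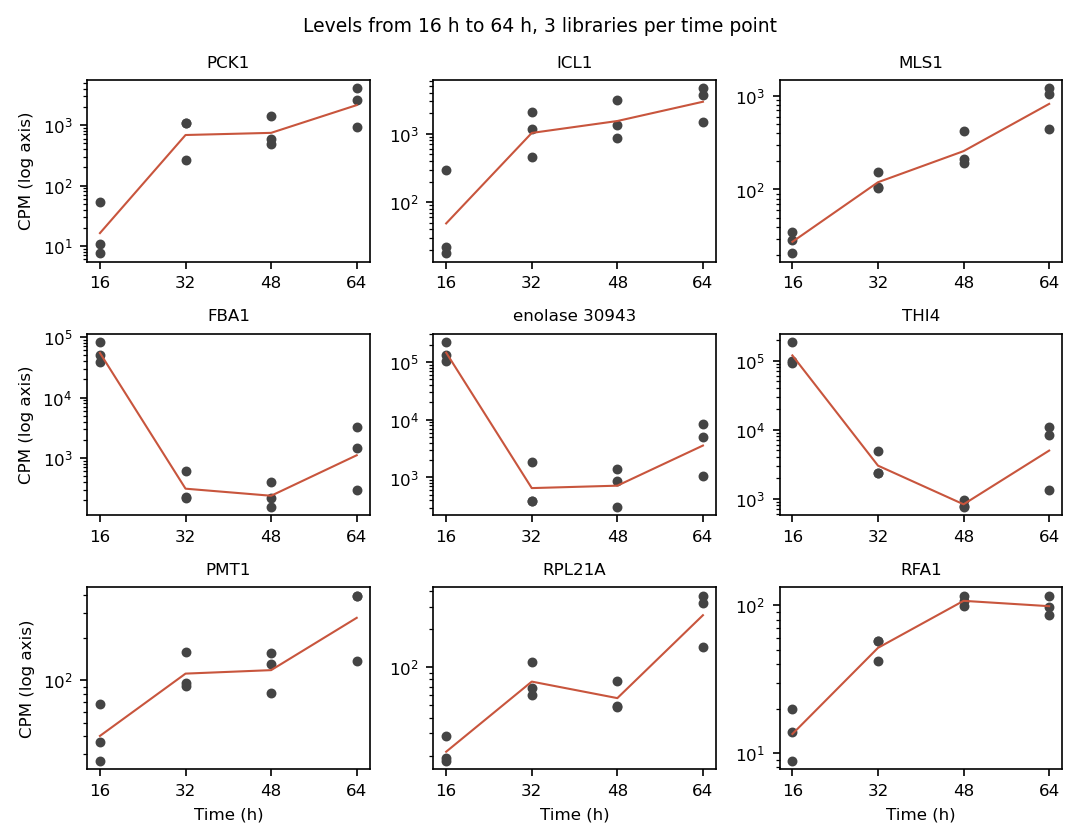
TMM-scaled CPM (log axis) of 9 genes in each library from 16 h to 64 h, 3 libraries per time point, with lines through the geometric means. MLS1 and RPL21A were highest at 64 h, and FBA1, enolase and THI4 were highest at 16 h with their lowest means at 32 h or 48 h.

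Several genes with large changes carry no annotation. WICANDRAFT_58505, among the genes with the highest counts at 64 h, went from 1291, 114 and 956 to 31022, 23425 and 16060.5 CPM (log2 fold change 4.90, SE 0.84, adjusted p = 0.000548). WICANDRAFT_69563 and WICANDRAFT_67202 were singled out after their values were seen. The first fell from 7352, 33781 and 4356 to 39.0, 46.7 and 41.7 CPM (log2 fold change -8.48, SE 1.17, adjusted p = 0.000115, and -7.11 without 16 h replicate 2), and the second rose from 33.2, 12.7 and 27.1 to 639.7, 468 and 739.9 CPM (log2 fold change 4.66, SE 0.44, adjusted p = 8.87e-06). The groups were separate in all 3. Of the 1138 risen genes 77.0% carried a symbol or description, and of the 1314 fallen genes 79.1%, against 76.5% of all genes tested.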

How the data were processed

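RNA was extracted with TRIzol and libraries were made with the VAHTS V6 kit, per the labels' protocols; fastp, HISAT2 and HTSeq are named in the submitters' processing notes, with the genome build and strand setting not given in the sources used here. The authors deposited whole-number counts per gene, not normalized, with KOG, KEGG and GO columns. All 6571 locus tags matched RefSeq's Wican1 gene table, which gave symbols. Genes were filtered with filterByExpr (6327 kept), scaled by TMM and tested with edgeR 4.0.16 in R 4.3.3 by the quasi-likelihood test, with all 15 libraries of 5 time points in one fit, 10 residual degrees of freedom and Benjamini-Hochberg adjustment at 0.05. The common biological coefficient of variation was 0.418. SE is the absolute log2 fold change over the square root of F and is approximate. DESeq2 1.42.0, limma-voom (limma 3.58.1), other scalings and filters and leaving out each library were alternatives. The fit was tested on simulated data with few changed genes and no outlying library. That test does not cover the scaling or the libraries that stood apart.

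Members and lists were chosen with earlier results of these data known. Named genes are the 10 largest rises and falls among annotated genes whose groups did not overlap and whose higher group averaged 20 CPM or more, up to 3 called members of each list with the largest change, the 5 genes with the most counts per group, up to 5 rises and 5 falls called in both comparisons, and a panel of 22 symbols, of which 16 were found. Genes of KEGG maps, and list members beyond 3, were named after their values were seen. KOG, KEGG and GO groups needed 10 tested members, and GO terms were named by hand for 49 of 3070. No set test was run. Fewer cells and less RNA per cell cannot be told apart in RNA of whole broth. Biological replicates are named in the labels, but not whether they were separate fermentations, so p-values measure a spread between samples. That spread was pooled over all 15 libraries of 5 time points and is not that of the 6 libraries compared alone.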

Additional observations from a re-analysis of the deposited data

How the results depend on the processing

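From 16 h to 64 h, leaving out each library in turn gave 836 to 1460 risen and 894 to 1508 fallen genes, and the counts moved by over 1.5 times with library size scaling (2303 and 386) and with only the 6 libraries compared in the fit (561 and 576). With the replicate number as a block 994 rose and 1098 fell, and of the 157 named genes 5 lost their place past the threshold. Same-numbered libraries had correlations of 0.08, -0.34 and -0.19 between their deviations from the group means. With 3 libraries a group and a library apart in each, these values cannot tell whether the numbers pair the samples. Among the named genes past the threshold, direction turned for MRPL9, of the mitochondrial ribosome, with library size scaling (log2 fold change 0.28), and for WICANDRAFT_68381 without 16 h replicate 2 and 64 h replicate 3 (0.20), whose value ran from -2.56 to -0.13 with single libraries left out. Of the named genes, 20 lost their call with library size scaling and 23 with only the libraries compared; the cause was not tested. For 64 h against the mean of 32 h and 48 h, risen and fallen counts were 607 and 265 with DESeq2, 2 and 1 with limma-voom, 18 and 1 when a change of over 1.5-fold was required, 19 and 21 with library size scaling, 0 and 0 with the block in edgeR (1361 genes with an unadjusted p under 0.05), and 987 and 1052 without both libraries that stood apart. The fallen count was 122 with only the libraries compared, and leaving out each library gave 0 to 724 risen and 0 to 622 fallen. Depth put the floor at 0.0777 to 0.17 CPM, and 3 libraries a group limit what spread can be seen.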
